A study of Drosophila melanogaster with 2 samples.

Results

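The nuclear genes for subunits of oxidative phosphorylation (OXPHOS) were examined for chromatin peaks of the zinc-finger protein CG12299 in Drosophila melanogaster embryos. They were chosen by name: nuclear protein-coding genes of the annotation whose symbol begins with ND-, UQCR-, COX or ATPsyn. The choice gave 80 of 13968 nuclear protein-coding genes, with 40 in complex I, 9 in complex III, 16 in complex IV and 15 in complex V. In 21 of the 80 the symbol marks a relative of a subunit gene by a final L, as in COX4L beside COX4. The other 59 are called the 59 subunit genes here. The grouping by L was widened after values had been seen, since the rule used first covers 17 of the 21.

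The ChIP-seq libraries came from transgenic flies that stably make CG12299 with GFP at its C terminus, and an anti-GFP antibody pulled down the chromatin. There was 1 group, whole embryos of 0 to 24 h, with 2 biological replicates, so peaks from all embryonic cell types and stages are mixed and there is no second condition to test against. A summit was counted for a gene when it lay within 1000 bp of one of its annotated transcription start sites (TSS). The lists were the authors' thresholded one of 3672 peaks, the pooled one of 29999, and 1 list for each replicate. Peak heights are given as signalValue, the authors' own score, whose scale is not given. It is compared within a list only, and rank 1 is the highest score. Read counts were not used, so the depth is unknown.

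OXPHOS makes most of the ATP of an aerobic cell. Complexes I and II feed electrons from NADH and succinate to ubiquinone, complex III passes them to cytochrome c, complex IV passes them to oxygen, and complex V, the ATP synthase, uses the resulting proton gradient. Some core subunits of complexes I, III, IV and V are encoded in mitochondrial DNA and the others in the nucleus, so that both genomes must supply each of these complexes. In Drosophila, many nuclear subunit genes have a duplicate with expression concentrated in the testis.

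The promoters of the 2 members with the highest score are shown first, from 250 bases before to 50 after the 5′ end of the gene record, on the gene's strand, from the release 6 genome (dm6). ND-ASHI lies at chrX:6679069-6679368 on the minus strand and ND-51 at chr2L:6062708-6063007 on the minus strand. Capitals mark the letters TATAAA or, on the other strand, TTTATA. They occur in ND-ASHI and not in ND-51.
ND-ASHI: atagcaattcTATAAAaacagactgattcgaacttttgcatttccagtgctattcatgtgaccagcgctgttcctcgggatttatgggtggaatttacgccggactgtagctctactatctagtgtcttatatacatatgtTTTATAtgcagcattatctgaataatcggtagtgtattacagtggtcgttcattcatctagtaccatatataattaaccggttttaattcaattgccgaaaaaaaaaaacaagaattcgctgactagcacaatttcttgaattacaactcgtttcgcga
ND-51: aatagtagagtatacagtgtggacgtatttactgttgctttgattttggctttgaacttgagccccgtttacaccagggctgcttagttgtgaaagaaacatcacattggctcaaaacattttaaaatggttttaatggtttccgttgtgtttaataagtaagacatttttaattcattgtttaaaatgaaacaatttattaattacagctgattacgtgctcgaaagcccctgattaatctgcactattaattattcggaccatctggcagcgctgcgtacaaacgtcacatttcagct

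The 101 bases around the summit are shown for ND-42, the 1 thresholded member with a nuclear respiratory gene (NRG) word there, and for a high-scoring member of each other complex. The windows are chr3R:22027505-22027605 for ND-42, chr3L:17425328-17425428 for COX7B, chr3L:16567670-16567770 for UQCR-6.4L and chr4:1031886-1031986 for ATPsynbeta, all in dm6 on the plus strand. Capitals mark the TATAAA word on either strand, and in ND-42 also the NRG word TTATATAA, which overlaps one of them. COX7B and ATPsynbeta hold none of the words searched. The first codons of the ATPsynbeta gene begin near the start of its window.
ND-42: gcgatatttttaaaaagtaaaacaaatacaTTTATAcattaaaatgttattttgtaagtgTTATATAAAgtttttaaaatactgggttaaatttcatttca
COX7B: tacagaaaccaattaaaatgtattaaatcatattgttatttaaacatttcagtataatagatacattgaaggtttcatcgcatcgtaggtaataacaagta
UQCR-6.4L: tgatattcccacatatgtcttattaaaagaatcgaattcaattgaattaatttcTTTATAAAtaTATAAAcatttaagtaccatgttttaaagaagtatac
ATPsynbeta: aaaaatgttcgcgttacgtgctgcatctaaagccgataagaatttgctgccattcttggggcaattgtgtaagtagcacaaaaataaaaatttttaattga

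Peaks near OXPHOS subunit genes were common, but most lay under the threshold, as they did for all genes. A thresholded summit lay near 16 of the 80 members (20.0%), beside 21.7% of all nuclear protein-coding genes, so the thresholded list did not set the members apart from the background. A pooled summit lay near 62 members (77.5%), beside 63.5% of all genes. Of the members with a pooled summit 25.8% also had a thresholded one, and of all genes with a pooled summit 34.2% did. When a peak was given only to the gene with the nearest TSS, 11 members (13.8%) kept a thresholded peak, beside 15.3% of all genes. The replicate lists held 30000 and 29999 peaks, about as many as the pooled one, so similar shares over all genes partly follow from list length. Replicate 1 had a summit near 63 members (78.8%; all genes 62.9%) and replicate 2 near 59 (73.8%; all genes 63.6%). Among the 3672 strongest peaks of each replicate, replicate 1 reached 13 members (16.2%; all genes 22.0%) and replicate 2 reached 19 (23.8%; all genes 21.2%). The members fell below the background in the strong peaks of one replicate and slightly above it in those of the other.

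The band of ranks just under the threshold held more members than the share of all genes there. At pooled ranks 3673 to 7344 lay the strongest summits of 18 members (22.5%), all of them among the 59 subunit genes, beside 13.6% of all genes and 21.9% of the 73 mitochondrial ribosomal protein genes. At the lower ranks 7345 to 29999 lay those of 28 members (35.0%), beside 28.2% of all genes. In the strongest 7344 pooled peaks, 34 members (42.5%) were reached, beside 35.3% of all genes. Among the 9977 pooled peaks with a q-value under 0.05, 43 members (53.8%) were reached, beside 42.0% of all genes. Both of these intermediate lists were added after values had been seen. The median pooled score of the members was 76.67, close to 78.69 for all genes, and the highest was 375.8 against 1884. No test was made of any of these shares, since the members were compared with other genes and not across conditions.

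**Figure D1:**
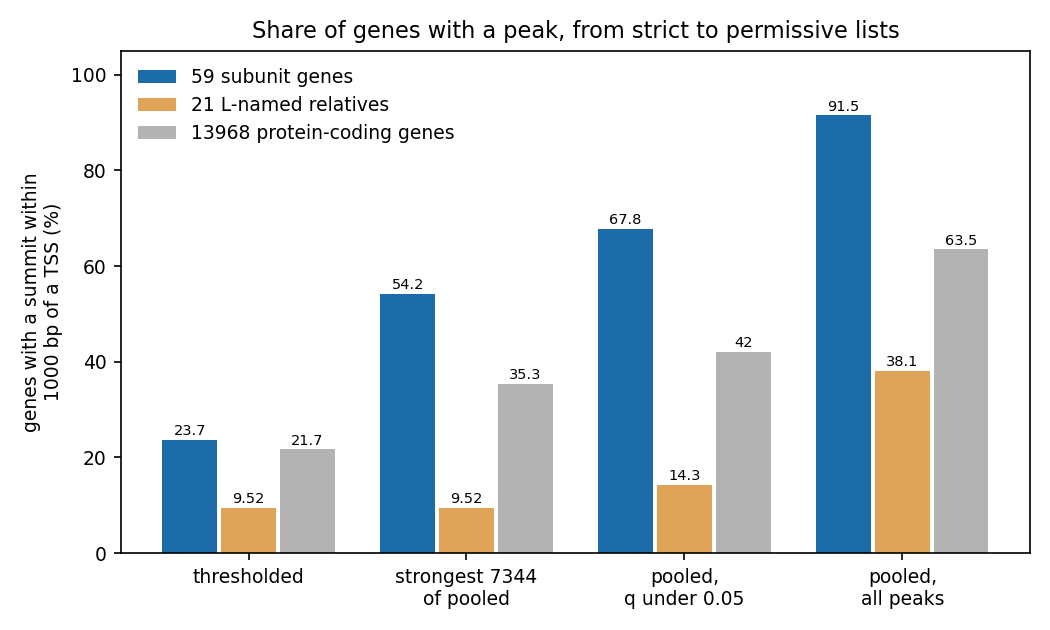
Share of genes (%) with a peak summit within 1000 bp of a TSS in the thresholded list, the strongest 7344 pooled peaks, pooled peaks with q under 0.05 and the whole pooled list, for the 59 subunit genes, the 21 L-named relatives and 13968 protein-coding genes. The subunit genes stand near all genes in the thresholded list (23.7% and 21.7%) and above them in the pooled list (91.5% and 63.5%), while the L-named relatives are lowest in each list.

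The shares of the 80 members hide 2 unlike groups. Of the 59 subunit genes 14 (23.7%) had a thresholded summit, 32 (54.2%) were reached by the strongest 7344 pooled peaks and 54 (91.5%) by the whole pooled list. A summit appeared in both replicate lists for 52 of the 59 (88.1%), beside 55.2% of all genes. ND-AGGG alone of the 59 had none in any list, as did 27.9% of all genes. Of the 21 L-named relatives 2 (9.52%) had a thresholded summit and 8 (38.1%) a pooled one. For 3 of the 21 (14.3%) both replicate lists had a summit, and 12 (57.1%) had none in any list.

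**Figure D2:**
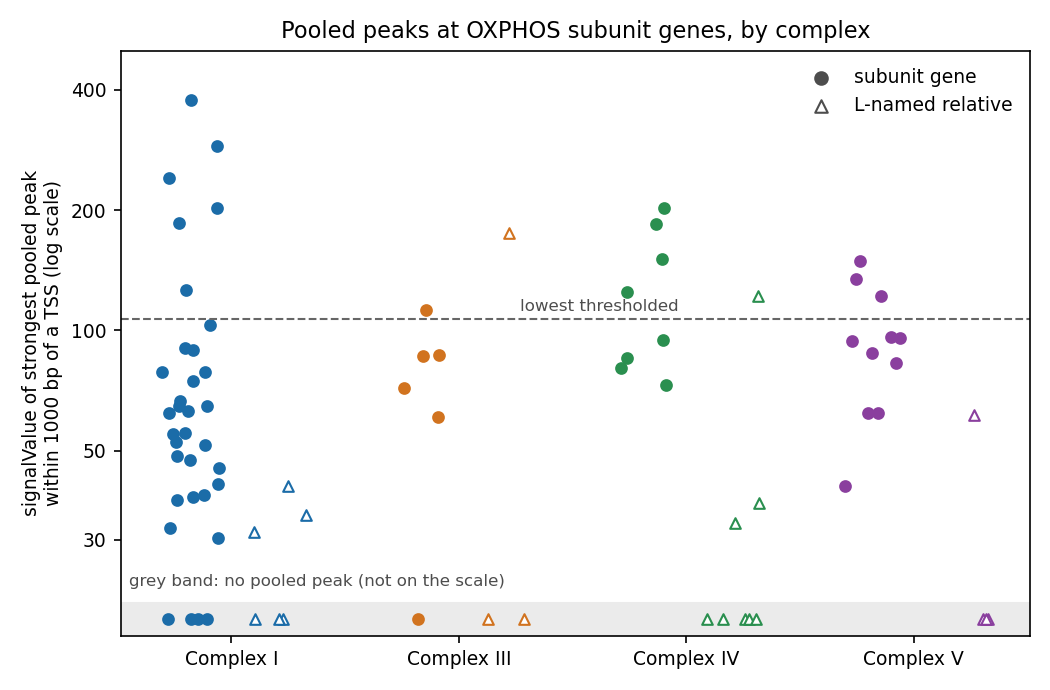
signalValue (log scale) of the strongest pooled peak within 1000 bp of a TSS of each member, by complex. Filled circles are the 59 subunit genes and open triangles the L-named relatives, the dashed line is the lowest thresholded score (107), and points in the grey band have no pooled peak. Complex I spans the widest range, up to 375.8 at ND-ASHI, and 13 of the 21 triangles lie in the grey band.

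Complex I held the strongest peaks of the set but a modest share of thresholded members, 6 of 40 (15.0%; all genes 21.7%). The pooled list reached 33 (82.5%; all genes 63.5%). ND-ASHI, an accessory subunit of the membrane arm, scored 375.8 in the pooled data (rank 336 of 3672 thresholded peaks). Its peak scored 200.5 in replicate 1 (rank 312) and 173.9 in replicate 2 (rank 363). The peak, at chrX:6679277-6679448 in dm6, lay 236 bp upstream of ND-ASHI and 286 bp upstream of a TSS of Fum1, which encodes the citric acid cycle enzyme fumarase and is transcribed the other way. Both replicates placed this peak among their strongest, and it counts for both genes.

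ND-51 and ND-24 encode the flavoprotein that accepts electrons from NADH and its iron-sulfur partner. ND-51 scored 288.6 in the pooled data (rank 557), 168.6 in replicate 1 (rank 463) and 106.3 in replicate 2 (rank 943), with the summit 100 bp upstream in the gap it shares with CG13994. ND-24 scored 201.9 in the pooled data (rank 1119), 108.3 in replicate 1 (rank 1175) and 92.21 in replicate 2 (rank 1220), with the summit 59 bp into its 5′ UTR and corolla, a synaptonemal complex gene, on the other side. Partners of this NADH-oxidising module thus both carried a thresholded peak. The iron-sulfur core subunit ND-75, which belongs to the same module, had a pooled score of 78.8 (rank 6165) and no thresholded peak.

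ND-MWFE, a small membrane subunit needed for assembly of complex I in mammals, scored 240.4 (rank 816), with 124.6 in replicate 1 (rank 871) and 103.6 in replicate 2 (rank 982). Its summit lay 177 bp upstream, nearer to TppII, a peptidase gene whose TSS was 44 bp away. ND-42, an accessory subunit, scored 185.3 (rank 1325), with 92.96 in replicate 1 (rank 1564) and 93.32 in replicate 2 (rank 1191). Here the nearest TSS, at 75 bp, was that of Cchl, the lyase that attaches heme to cytochrome c, and ND-42 lay 154 bp away. ND-15, an accessory subunit, scored 126.2 (rank 2694), with 53.88 in replicate 1 (rank 4696) and 74.63 in replicate 2 (rank 1784). The summit, at position 156099 of 2L, lay 764 bp downstream of the closest of its 3 TSSs and 50 bp upstream of CG3436. The ND-15 record runs from 114726 to 156030, so the summit lay past its end and far from its 5′ end. In these 3 cases another gene's start was closer to the summit than that of the complex I gene.

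The complex I member closest to the threshold from below was ND-23, a core subunit that carries iron-sulfur clusters. Its pooled score of 103 (rank 3926) compares with 107 for the lowest thresholded peak, and the replicates gave 44.5 (rank 6591) and 54.1 (rank 3271). The pooled score was 66.83 at the core subunit gene ND-30 and 30.31 at ND-18, an accessory subunit gene. The core subunit genes ND-20 and ND-49 had no pooled summit, although ND-20 had weak ones in both replicates (21.49 and 18.58) and ND-49 one in replicate 2 (42.39). ND-MLRQ had one in replicate 1 alone (27.71). The core subunits of complex I therefore ranged from rank 557 to no pooled peak at all.

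In complex III, 2 of 9 members (22.2%; all genes 21.7%) had a thresholded summit and 6 (66.7%; all genes 63.5%) a pooled one. Both thresholded summits lay near the edge of the 1000 bp window. UQCR-6.4L, an L-named relative of the small subunit gene UQCR-6.4, scored 175.2 (rank 1464), with 86.83 in replicate 1 (rank 1810) and 82.35 in replicate 2 (rank 1493). The summit lay 970 bp downstream of its TSS, in an intron of Mipp1, and the replicate 2 summit was shifted by 56 bp, out of the window. UQCR-14, which encodes a small subunit, scored 112.8 (rank 3316), with 53.05 in replicate 1 (rank 4831) and 58.21 in replicate 2 (rank 2844), 928 bp upstream and in the 3′ UTR of eas, an ethanolamine kinase gene. With a window of 500 bp complex III had 0 thresholded members, beside 19.1% of all genes.

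Weaker peaks of complex III lay nearer to the starts. UQCR-Q had a pooled score of 86.83 (rank 5259), with 61.22 in replicate 1 (rank 3673) and 30.27 in replicate 2 (rank 8524). The genes of the large core proteins, UQCR-C1 and UQCR-C2, scored 71.65 and 86.54. UQCR-11, the hinge protein gene, had no pooled summit and weak ones in both replicates (19.21 and 17.05).

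In complex IV, 5 of 16 members (31.2%; all genes 21.7%) had a thresholded summit and 11 (68.8%; all genes 63.5%) a pooled one. When a peak was given only to the nearest TSS the count was 3 (18.8%), beside 15.3% of all genes. By that count complex I stood at 7.50%, complex III at 22.2% and complex V at 20.0%. All 8 complex IV subunit genes without an L name had a summit in the pooled list, in both replicate lists, in the strongest 7344 pooled peaks and under the q-value of 0.05. Of all genes 63.5%, 55.2%, 35.3% and 42.0% did, in that order. The products are small nuclear subunits placed around the catalytic core that mitochondrial DNA encodes. COX5A scored 202.6 (rank 1110), with 113.7 in replicate 1 (rank 1055) and 88.66 in replicate 2 (rank 1320), 108 bp downstream of its TSS, and the start of glo, an RNA-binding protein gene, was 47 bp away. COX7B scored 184.6 (rank 1336), with 99.45 in replicate 1 (rank 1377) and 76.75 in replicate 2 (rank 1701), 99 bp upstream in the gap shared with Sec3 of the exocyst. COX8 scored 150.8 (rank 1937), with 99.56 in replicate 1 (rank 1373) and 82.47 in replicate 2 (rank 1488), 110 bp upstream in the gap shared with VhaM9.7-b, a vacuolar proton pump subunit gene. All of these peaks were within the 3672 strongest of both replicates.

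COX5B scored 124.9 (rank 2750), with 71.48 in replicate 1 (rank 2689) and 66.15 in replicate 2 (rank 2247). The nearest TSS was that of IFT52, a gene of intraflagellar transport, 71 bp away against 227 bp for COX5B. Without a thresholded peak, COX4 scored 94.63 (rank 4539), with 57.5 in replicate 1 (rank 4168) and 40.72 in replicate 2 (rank 5304). COX7A followed with 85.34, COX6B with 80.66 and COX7C with 72.87. COX7C had a thresholded peak of 309.5 (rank 490) at 1956 bp upstream, outside the window, with no TSS nearer than its own.

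In complex V, 3 of 15 members (20.0%; all genes 21.7%) had a thresholded summit and 12 (80.0%; all genes 63.5%) a pooled one. All 11 members without an L name had a pooled summit and a summit in both replicates, beside 63.5% and 55.2% of all genes. ATPsynbeta, the catalytic subunit, scored 149.2 (rank 1972), with 54.18 in replicate 1 (rank 4647) and 94.26 in replicate 2 (rank 1168), 72 bp downstream of its TSS in the coding sequence. ATPsynC, the subunit that forms the rotor ring in the membrane, scored 134.2 (rank 2399), with 46.27 in replicate 1 (rank 6207) and 100.2 in replicate 2 (rank 1048), at the TSS itself. ATPsynE, a membrane subunit, scored 122.2 (rank 2870), with 65.43 in replicate 1 (rank 3203) and 59.23 in replicate 2 (rank 2758), 8 bp upstream. At ATPsynbeta and ATPsynC the peak stood far higher in replicate 2's order than in replicate 1's.

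Several complex V genes lay just under the threshold. ATPsynCF6, coupling factor of the peripheral stalk, scored 96.38 (rank 4399), with its summit 155 bp upstream. Replicate 2 had a peak of 48.73 (rank 3926) at the same place. The strongest replicate 1 peak in the window, 99.23 (rank 1385), was another one, 965 bp upstream, beside a thresholded peak of 193.6 at 1127 bp, outside the window. ATPsynF scored 95.8, ATPsynD 93.94, ATPsyndelta 87.72 and ATPsyngamma, the rotor shaft, 83.01. ATPsynO, the stalk protein that ties the catalytic head in place, was the lowest at 40.98. Between them the 11 genes covered pooled ranks 1972 to 17138.

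The L-named relatives were paired with their base genes, 21 pairs over 18 base genes, using levy, cype and sun as the bases of COX6AL and COX6AL2, COX6CL and ATPsynepsilonL. In 11 pairs a pooled summit lay near the base gene alone, and in 4 near both with the base higher. In 2 pairs the relative was higher: UQCR-6.4L at 175.2 against 60.81, and COX7AL2 at 121.6 against 85.34 for COX7A. In 2 pairs only the relative had one, ND-20L at 34.53 and ATPsynepsilonL at 61.64. The ND-20 pair is weak ground for an order, since the lowest pooled score was 29.2. ND-20L had a summit in replicate 1 alone (25.11), and its base ND-20 had them in both replicates (21.49 and 18.58). ND-49 with ND-49L and UQCR-11 with UQCR-11L had no pooled summit on either side.

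COX7AL2, the other thresholded relative, had 64.92 in replicate 1 (rank 3253) and 71.67 in replicate 2 (rank 1930), and its summit lay 597 bp upstream of its closest TSS, inside an intron of the gene. The largest contrast was at ND-51, with 288.6, whose relatives had 40.91 (ND-51L1) and no pooled peak (ND-51L2). ATPsynbeta at 149.2 and levy, the COX6A gene, at 165.4 stood beside relatives with no pooled peak. The relatives without a pooled summit were ND-24L, ND-49L, ND-51L2, UQCR-11L, UQCR-14L, COX4L, COX6AL, COX6AL2, COX6CL, COX7CL, ATPsynCF6L, ATPsynGL and ATPsynbetaL. UQCR-11L alone among them had a replicate summit, 28.03 in replicate 2. The relatives were shorter, with a median gene length of 703 bp against 1178 bp for the 59 subunit genes, and had fewer starts, 90.5% with a single TSS against 45.8%. With 1 TSS taken per gene, a pooled summit still lay near 54 of the 59 and 8 of the 21, beside 62.1% of all genes.

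**Figure D3:**
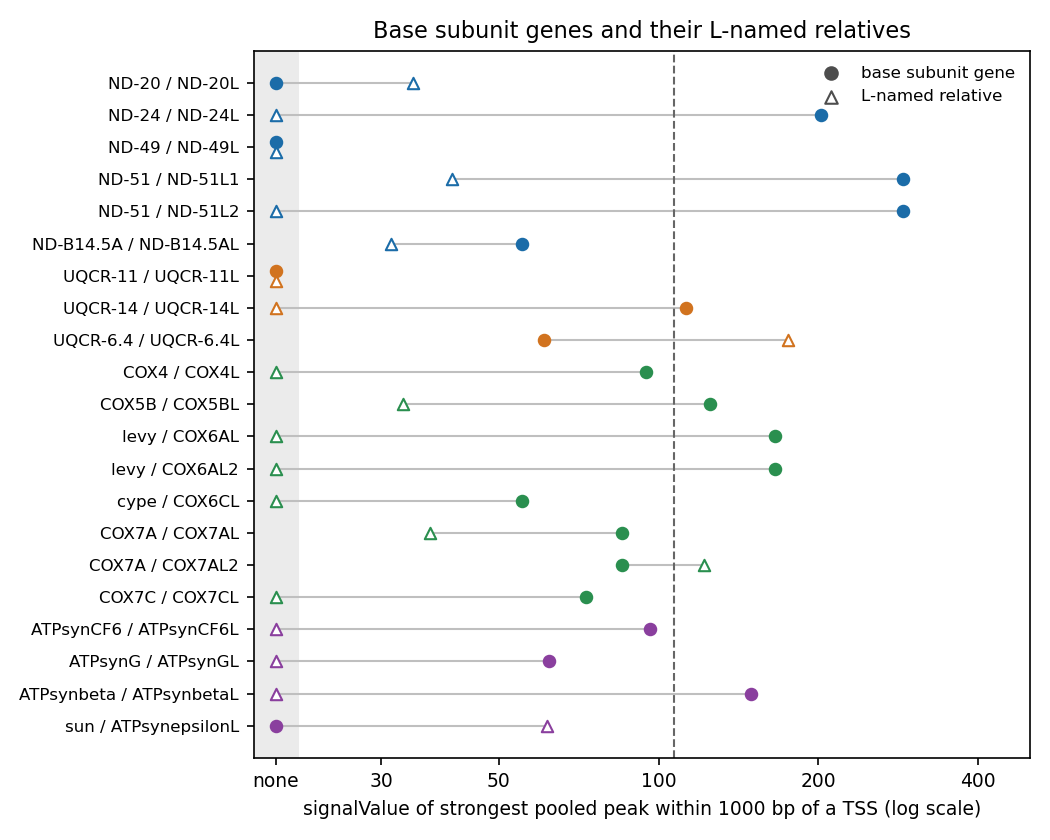
signalValue (log scale) of the strongest pooled peak within 1000 bp of a TSS for each base subunit gene (filled circle) and its L-named relative (open triangle), with the lowest thresholded score as a dashed line and genes without a pooled peak in the grey band. The base gene lies to the right in 15 of 21 pairs, and the relative does so in UQCR-6.4L, COX7AL2, ND-20L and ATPsynepsilonL.

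The 16 thresholded peaks had counterparts in both replicates. All 16 were within the 3672 strongest peaks of replicate 2, and 12 were within those of replicate 1. The thresholded list was made from both replicates, so these counts are largely set by the choice of peaks. They are no independent measure of agreement. The exceptions in replicate 1 were ND-15, UQCR-14, ATPsynbeta and ATPsynC, at ranks 4647 to 6207. Counted by gene window, 11 members were reached by the strongest peaks of both replicates, and all 11 were thresholded, which the choice of peaks also favours. Strong peaks of replicate 2 reached ND-SGDH, ND-23, ND-MNLL and COX7C without a thresholded peak in the window, and those of replicate 1 reached ATPsynCF6. Over the 55 members with a summit in both lists, the ranks of each replicate's strongest summit in the window had a correlation of 0.67 (Spearman), and over 7717 nuclear coding genes it was 0.80. In 12 of the 55 those strongest peaks shared no base between the replicates. That count was not made over all genes, so it cannot be read as particular to the members. Genes that share a summit are not separate points in either correlation. Of the 55 members 27 ranked better in replicate 1 and 28 in replicate 2, and over the nuclear coding genes 50.3% ranked better in replicate 1. Among the strongest peaks 8 members were reached in replicate 2 alone and 2 in replicate 1 alone. This split was not counted over all genes, of which replicate 1 reached 22.0% and replicate 2 reached 21.2% in total.

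**Figure D4:**
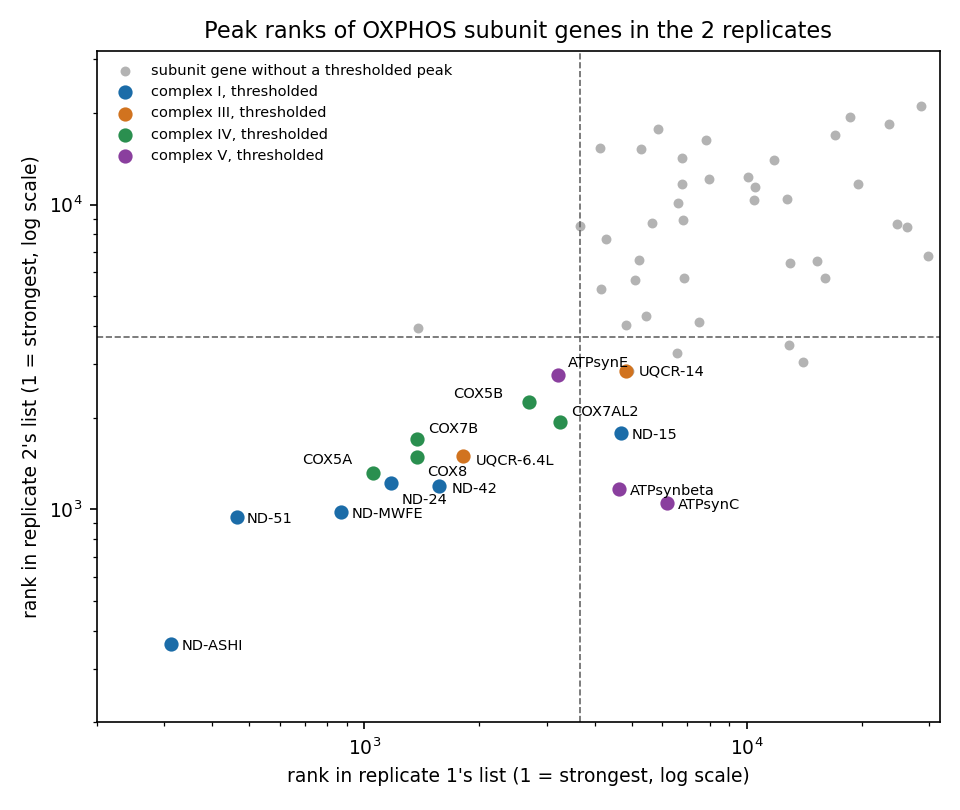
Rank of each member's peak in replicate 1 (horizontal, log scale) and replicate 2 (vertical, log scale), with rank 1 the strongest, coloured points for the peaks of the 16 thresholded members, grey for the strongest summits in the window of others with one in both lists, and dashed lines at rank 3672. The coloured points all lie under the horizontal line, and ND-15, UQCR-14, ATPsynbeta and ATPsynC lie to the right of the vertical one.

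Summits lay close to the starts of the genes. Over the 62 members with a pooled summit the median distance was 119.5 bp, against 176 bp for all genes, and 46 (74.2%) were within 250 bp, against 62.2%. A further count gave 46 (74.2%) upstream of the TSS, against 69.7% of all genes. Of the 16 thresholded summits 12 were within 250 bp and 4 were beyond 500 bp, and those 4 were ND-15, UQCR-6.4L, UQCR-14 and COX7AL2. The windows of 13 of the 16 held the TSS of another gene, so those peaks cannot be assigned to the OXPHOS gene alone. No such share over all genes stands beside this count. At ATPsynC the other starts were mir-4949 and further records on its own strand, and its own TSS was the nearest.

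**Figure D5:**
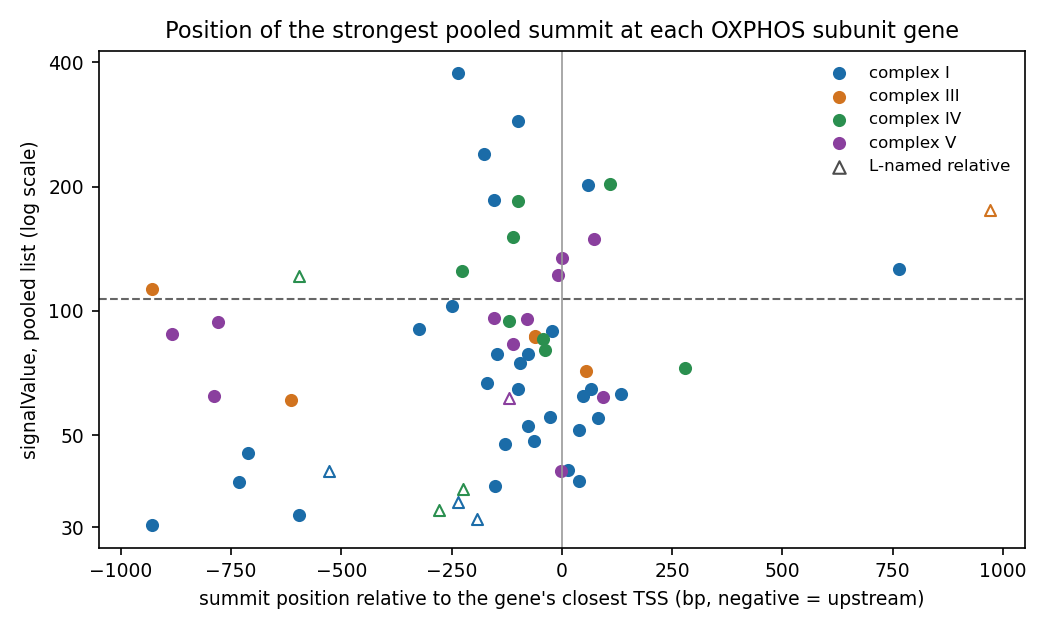
Position of the strongest pooled summit relative to the closest TSS of each member (bp, negative values upstream) against its signalValue (log scale), coloured by complex, with open triangles for L-named relatives and a dashed line at the lowest thresholded score. Most points lie within 250 bp of the TSS, and 4 of the 16 above the line lie beyond 500 bp.

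Close neighbours were frequent in the gene set, and more so in the mitochondrial ribosomal protein genes. A gene transcribed the other way started within 1000 bp upstream of 41 of the 80 members (51.2%), against 38.2% of all genes. The 59 subunit genes had such a neighbour in 64.4%, the 21 L-named relatives in 3 cases (14.3%) and the mitochondrial ribosomal protein genes in 79.5%. The member's own TSS was the nearest to its pooled summit in 39 of 62 cases (62.9%), against 72.9% for all genes and 48.5% for the ribosomal protein genes. The part of shared promoters in the pooled shares of 91.5% for the 59 subunit genes and 38.1% for the relatives was not tested.

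By chromosome arm the thresholded members were spread: 4 of 16 on 2L, 1 of 15 on 2R, 3 of 19 on 3L, 4 of 16 on 3R, 1 of 2 on chromosome 4 and 3 of 12 on X. The share over all coding genes ran from 20.2% on X to 27.5% on chromosome 4. On 2R the 1 thresholded member was ND-MWFE, and 10 of the 15 had a pooled summit.

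Base composition and short words were read within 50 bp of each pooled summit and over the 300-base promoters, on both strands. The words were the NRG element (TTACATAA, TTATGTAA, TTACGTAA or TTATATAA), known from promoters of fly respiratory genes, the DNA replication-related element DRE (TATCGATA), the BEAF-32 word TCGATA that DRE contains, TATAAA, the E-box CACGTG, the ETS word CCGGAAG and the erect wing (ewg) word GCGCATG. GC content at the 16 thresholded summits averaged 31.8% ± 11.1 (SD), against 34.3% for the thresholded summits of all coding genes. It ran from 17.8% at ND-42 to 62.4% at COX7AL2. At the 62 pooled summits it averaged 36.6%, against 39.1% for 6705 summits of coding genes.

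At the 62 pooled summits the NRG word occurred in 4 (6.45%; 2.00% of the 6705), at ND-ACP, ND-SGDH, ND-42 and ND-30, all of complex I. DRE occurred in 4 (6.45%; 3.01%), at ND-23, ND-B14.5B, COX4 and COX7A. TCGATA occurred in 13 (21.0%; 10.3%) and TATAAA in 16 (25.8%; 16.9%). The E-box, ETS and ewg words occurred in 0, against 1.19%, 0.447% and 0.656%. At the 16 thresholded summits there were 0 with DRE, TCGATA or the E-box, ETS or ewg word. The 2074 thresholded summits of all coding genes held these in 3.18%, 10.6%, 0.916%, 0.868% and 0.241%, in that order. In only 16 windows, shares this low can give 0. There were 1 with an NRG word (6.25%) and 4 with TATAAA (25.0%), against 2.56% and 24.0% of the 2074. In the promoters of the 59 subunit genes DRE occurred in 15.3%, against 9.36% of all promoters, and the NRG word in 8.47%, against 5.18%. The promoters of the 21 relatives held 0 of either. These are matches of letters over few genes, and no binding by another factor was measured.

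Subunits and cytochromes under other symbols were counted from a list of 19 symbols, of which 17 were in the annotation. A thresholded summit lay near 9 of the 17 (52.9%), and with the 80 members this made 25 of 97 (25.8%), beside the 21.7% of all genes. In complex II, SdhA, the flavoprotein of succinate dehydrogenase, scored 143.1 and SdhC, a membrane anchor, 149.2, with the start of Tctp closer. SdhB had no pooled summit and SdhD scored 67.27. In complex III, RFeSP, the Rieske iron-sulfur protein, scored 110.8 and Cyt-c1, the heme protein, 113.6, with the start of Klp64D closer, while its relative Cyt-c1L scored 171.9. In complex V, blw, the alpha subunit that forms the catalytic head with ATPsynbeta, scored 143.2. In complex IV, levy scored 165.4, with wmd closer.

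The highest scores of that list were at the cytochrome c genes, which encode the electron carrier between complexes III and IV. Cyt-c-d scored 544.4 (rank 144), with 287.5 in replicate 1 (rank 139) and 251.1 in replicate 2 (rank 177), above every one of the 80 members. Its nearest start was that of CG31808, 137 bp away against 371 bp. Cyt-c-p scored 242, with 116.9 in replicate 1 (rank 997) and 126.4 in replicate 2 (rank 690), 939 bp downstream of its TSS.

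Other groups of mostly housekeeping genes were read for comparison. Of 73 mitochondrial ribosomal protein genes 24 (32.9%) had a thresholded summit and 68 (93.2%) a pooled one, and of 33 vacuolar proton pump subunit genes 13 (39.4%) and 24 (72.7%) did. The pooled share of the 59 subunit genes (91.5%) lay beside that of the ribosomal protein genes, and their thresholded share (23.7%) was the lowest of these. The highest pooled score was 1621 in the ribosomal group, 262 in the pump group and 375.8 among the OXPHOS members.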

How the data were processed

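Peak lists in narrowPeak format were used as deposited. Per the deposited manifests, the authors called peaks on each replicate and on both together against 1 control alignment. The thresholded list is the one the authors cut at their reproducibility limit. The 16 members on it held the same ranks in the pooled list. Pooled ranks 1 to 3672 also held the same counts, 16 members and 3036 coding genes. The list thus matches a cut on pooled score, and a peak on it need not rank high in each replicate. RFeSP, for example, is on it at rank 9618 in replicate 1. The control was not analysed here. Per the labels the build is dm6, and chromatin was sonicated to 200 to 800 bp. No aligner or caller is named in the sources used here. The column signalValue is the authors' score, with no stated scale. The authors' q-value column, as −log10, was used for 1 alternative list. In the pooled and replicate 2 lists 1 repeated position was dropped. Read counts were not used, so depth and counting precision are unknown.

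Summits were matched to every TSS of the Ensembl release 115 annotation on the release 6 genome, without transposable elements, and each gene took its highest-scoring summit within 1000 bp. For thresholded peaks, the replicate values are those of the overlapping replicate peak; for other members, those of the replicate's strongest summit in the window. No test was made, since there is 1 group, and counts stand beside the same over all 13968 nuclear protein-coding genes. Nothing in the labels says that the biological replicates came from separate crosses. Members and lists were chosen with earlier results of these data known. Named are all thresholded members, the strongest other member of each complex, members with no pooled summit and pathway genes with a thresholded summit. Other members were named after their values were seen. Alternatives were the pooled list, the strongest 1836 peaks, windows of 500 and 2000 bp, the nearest TSS, 1 TSS per gene, any base of a peak in the window and each replicate alone. The wider L grouping, 2 intermediate lists and the pooled counts with 1 TSS per gene were added after values had been seen. The counting was tested on simulated data. Python 3.11.15, numpy 2.4.6, pandas 2.3.3, scipy 1.17.1 and matplotlib 3.10.9 were used.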

Additional observations from a re-analysis of the deposited data

How the results depend on the processing

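The count of members with a thresholded summit (16 of 80) depended most on the list. The share of all genes, 21.7% in the thresholded list, moved with the list as well. The whole pooled list gave 62 members (77.5%), beside 63.5% of all genes. By complex these were 33 in I, 6 in III, 11 in IV and 12 in V. They were 7 paralogues by the first naming rule and 55 other members. The strongest 7344 pooled peaks gave 34 (42.5%), beside 35.3% of all genes. There were 12, 5, 9 and 8 by complex and 32 members not named as paralogues. Complex I, at 12 of 40, lay below the share of all genes there, and the other complexes lay above it. Pooled peaks with q under 0.05 gave 43 (53.8%), beside 42.0% of all genes. There were 17, 6, 9 and 11 by complex and 41 not named as paralogues. The strongest 1836 thresholded peaks gave 8, a share below that of all genes. There were 1 in complex III, 2 in IV, 0 in V, 1 paralogue and 7 others. A window of 500 bp left 0 members in complex III and 0 paralogues, beside 19.1% of all genes. A window of 2000 bp gave 5 of 15 in complex V (33.3%), beside 26.1% of all genes. The nearest TSS alone gave 3 members in complex I (7.50%), 3 in complex IV (18.8%) and 9 not named as paralogues (14.3%), beside 15.3% of all genes. Any base of the peak in the window gave 17 members (21.2%), beside 22.6% of all genes. With 1 TSS per gene there were 15 (18.8%), beside 20.2%. Each of these follows from the peaks or window each setting keeps. With the strongest 3672 peaks of 1 replicate alone, replicate 1 gave 13 members, beside 22.0% of all genes, and replicate 2 gave 19, beside 21.2%. Complex III had 1 in each, and the paralogues had 2 in replicate 1 and 1 in replicate 2. No paired analysis was possible because there is 1 group. Depth is unknown, and a gene without a pooled summit may still have a peak under the ceiling of the list.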

Other observations

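Genes around the respiratory chain were read from lists of the citric acid cycle, carriers, regulators and assembly factors. Of 17 citric acid cycle genes 6 had a thresholded summit in the same 1000 bp window. Idh3g, a subunit of the NAD-dependent isocitrate dehydrogenase, scored 615.4 (rank 114), with 297.1 in replicate 1 (rank 125) and 320.7 in replicate 2 (rank 104), at 96 bp upstream of its TSS. Fum1 scored 375.8 through the peak it shares with ND-ASHI, mAcon1, the mitochondrial aconitase, 186.4, Pdhb 154.8, Ogdh 119.4 and Idh 109.6. The other subunits of the Idh3g enzyme, Idh3a and Idh3b, had pooled scores of 59.99 and 85.68 and no thresholded summit.

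Of 5 carriers 4 had one. The adenine nucleotide carriers sesB and Ant2 share a TSS and 1 peak of 136.2, the phosphate carrier Mpcp2 scored 148.6 and the outer membrane channel porin 112.8. Of 11 regulators 4 had one: Max at 178, mTerf5 at 131, mTerf3 at 123.8 and ewg at 123.1. Ets97D scored 103.8 in the pooled list, under the threshold. Of 5 assembly factors Ttc19 scored 155.2 and Coa7 115.6. Starts of other genes were closer for Pdhb, Max, mTerf3, Ttc19 and Coa7. Of all nuclear protein-coding genes 21.7% had a thresholded summit.

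Of the 5 subunit genes without an L name and without a pooled summit, ND-MLRQ, ND-AGGG and UQCR-11 begin beyond position 23000000 of arm 3L in dm6, and no other member does. In that stretch 14 of 36 coding genes (38.9%) had a pooled summit, against 1785 of 2703 (66.0%) on the rest of 3L. The boundary was chosen after seeing these genes, and its part in their missing peaks was not tested.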
